A study of Rattus norvegicus with 40 samples.

Results

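Matrix metalloproteinases and their tissue inhibitors were followed as a family of 9 genes, Mmp2, Mmp9, Mmp11, Mmp14, Mmp16, Timp1, Timp2, Timp3 and Timp4, chosen by name. They matched 16 of the 31099 probe sets (each probe set reads 1 transcript through several short probes) and were 9 of 14217 named genes. The samples were whole intestine and whole lung from wistar rats before birth, taken at gestational day 16 (E16) or 20 (E20). Each of the 4 groups had 10 arrays, and no group carried a treatment or an altered allele. The labels speak of frozen tissue from several littermates, and whether an array holds RNA of 1 embryo or of a pool is not settled. The p-values therefore set group differences against the spread between these arrays, part of which may be technical. That spread may not be the one between litters, and age and litter cannot be told apart. Labelling started from 1 µg of RNA for intestine but 2 µg for lung, and organ and RNA amount cannot be told apart.

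Matrix metalloproteinases are zinc enzymes that cut collagens, basement membrane and other extracellular proteins. Most are made as inactive proenzymes, and some are anchored in the cell membrane. The tissue inhibitors bind the active site of these enzymes. Mmp14 at the cell surface holds Timp2, which in turn captures the proenzyme of Mmp2 for activation, so Timp2 takes part in activation as well as inhibition. Matrix is remodelled during branching of the fetal lung and growth of the gut wall. By its title the study asked how these organs are prepared for birth.

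The lung and the intestine carried their own markers. Mean log2 intensity of Sftpc, the surfactant protein gene of the lung epithelium, was 11.18 in lung at E16 and 14.83 at E20, against 6.31 and 6.41 in intestine. Cdx2, a regulator of intestinal epithelium, stood at 7.81 and 12.12 in intestine, against 6.61 and 6.57 in lung, so at E16 it lay just under the median of all log2 values (7.89). Array medians lay between 220 and 264 intensity units, and the closest pair of arrays correlated at 0.994. Lung E20 replicates 1, 6 and 8 stood apart from the other 7 lung arrays at E20: they were the 3 lowest arrays in 6.54% of all genes and the 3 highest in 7.11%. Replicates 1 and 8 held more liver transcripts (summed marker level 13.02 and 13.17 log2 units, against 9.12 to 9.37 in the other 7), and replicate 6 more mesothelial transcripts (12.0, against 10.47 to 11.35). Lung E16 replicate 9 held the most cardiac transcripts (14.44, against a group median of 9.53). Intestine E16 replicate 9 held the most liver transcripts of its group (13.77, median 10.75) and the most of exocrine pancreas (11.48, median 9.53).

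The 3 inhibitor genes that were called in an age comparison, Timp1, Timp2 and Timp3, are shown by the 250 bases before their annotated start (RefSeq, GRCr8), since Timp2 and Timp3 rose in lung and Timp1 fell in intestine. Each is written in the direction of its gene, with matches to the GC box and to an AP-1 variant in capitals. RefSeq promoter entries matched 5 of the 9 genes, namely Mmp11 and the 4 inhibitors.
Timp1, chrX:3771123-3771372, minus strand: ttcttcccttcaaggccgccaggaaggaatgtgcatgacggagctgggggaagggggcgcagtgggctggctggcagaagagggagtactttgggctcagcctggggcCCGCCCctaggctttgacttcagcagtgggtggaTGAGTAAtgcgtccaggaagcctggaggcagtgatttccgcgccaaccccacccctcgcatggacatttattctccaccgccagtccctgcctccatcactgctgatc
Timp2, chr10:104089215-104089464, minus strand: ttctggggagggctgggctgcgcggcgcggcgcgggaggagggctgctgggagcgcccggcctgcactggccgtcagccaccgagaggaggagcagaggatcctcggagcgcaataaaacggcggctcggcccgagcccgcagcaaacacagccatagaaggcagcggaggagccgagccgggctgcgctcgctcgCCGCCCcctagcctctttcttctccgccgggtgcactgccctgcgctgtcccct
Timp3, chr7:19459559-19459808, minus strand: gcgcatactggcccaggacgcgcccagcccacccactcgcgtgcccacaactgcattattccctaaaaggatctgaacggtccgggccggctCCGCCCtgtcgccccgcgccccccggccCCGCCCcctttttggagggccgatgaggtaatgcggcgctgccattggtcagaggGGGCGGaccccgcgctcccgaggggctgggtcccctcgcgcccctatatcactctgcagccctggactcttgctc
The motifs searched on both strands were the GC box GGGCGG, the AP-1 site TGANTCA, the AP-1 variant TGAGTAA and the TATA box TATAAA, none of which overlapped another here. The GC box was found 3 times before Timp3 and 1 time each before Timp1 and Timp2, and in 30.5% of 33469 promoter windows of the same length. The AP-1 variant was found 1 time, before Timp1, and in 2.38% of all windows. No match to the AP-1 site (6.34% of all windows) or to the TATA box (12.9%) was found before these 3 genes. The share of G and C bases was 61.2% for Timp1, 72.0% for Timp2 and 69.6% for Timp3, against a median of 51.2% over all windows. The inhibitor genes also share a position. Timp1 lies inside the span of the synapsin gene Syn1, Timp3 inside Syn3 and Timp4 inside Syn2, while Timp2 lies in no synapsin gene. The synapsins did not pass the criteria in either organ: Syn1 differed by -0.17 in intestine and 0.04 in lung between ages, Syn3 by -0.31 and 0.04, and Syn2 by -0.96 and -0.20.

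Between E16 and E20, Mmp16 was called in both organs and the other called members in 1 organ each. In lung the inhibitors Timp3 and Timp2 rose and the membrane protease Mmp16 fell, while in intestine Mmp2, Mmp16 and Timp1 fell and no member rose. Calls rest on limma fitted to all genes and all 40 arrays, at a Benjamini-Hochberg adjusted p under 0.05 and a difference of at least 1 log2 unit (2-fold). In intestine 3 of 9 members fell and none rose, where 6.26% of all 14217 genes fell and 8.79% rose. In lung 2 of 9 rose and 1 fell, where 7.15% of all genes rose and 4.63% fell. The median difference over the 9 members was -0.62 in intestine and 0.21 in lung, beside -0.09 and -0.01 over all genes. Intensities on arrays come from whole organs, so fewer cells of a type and less RNA per cell cannot be told apart.

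**Figure D1:**
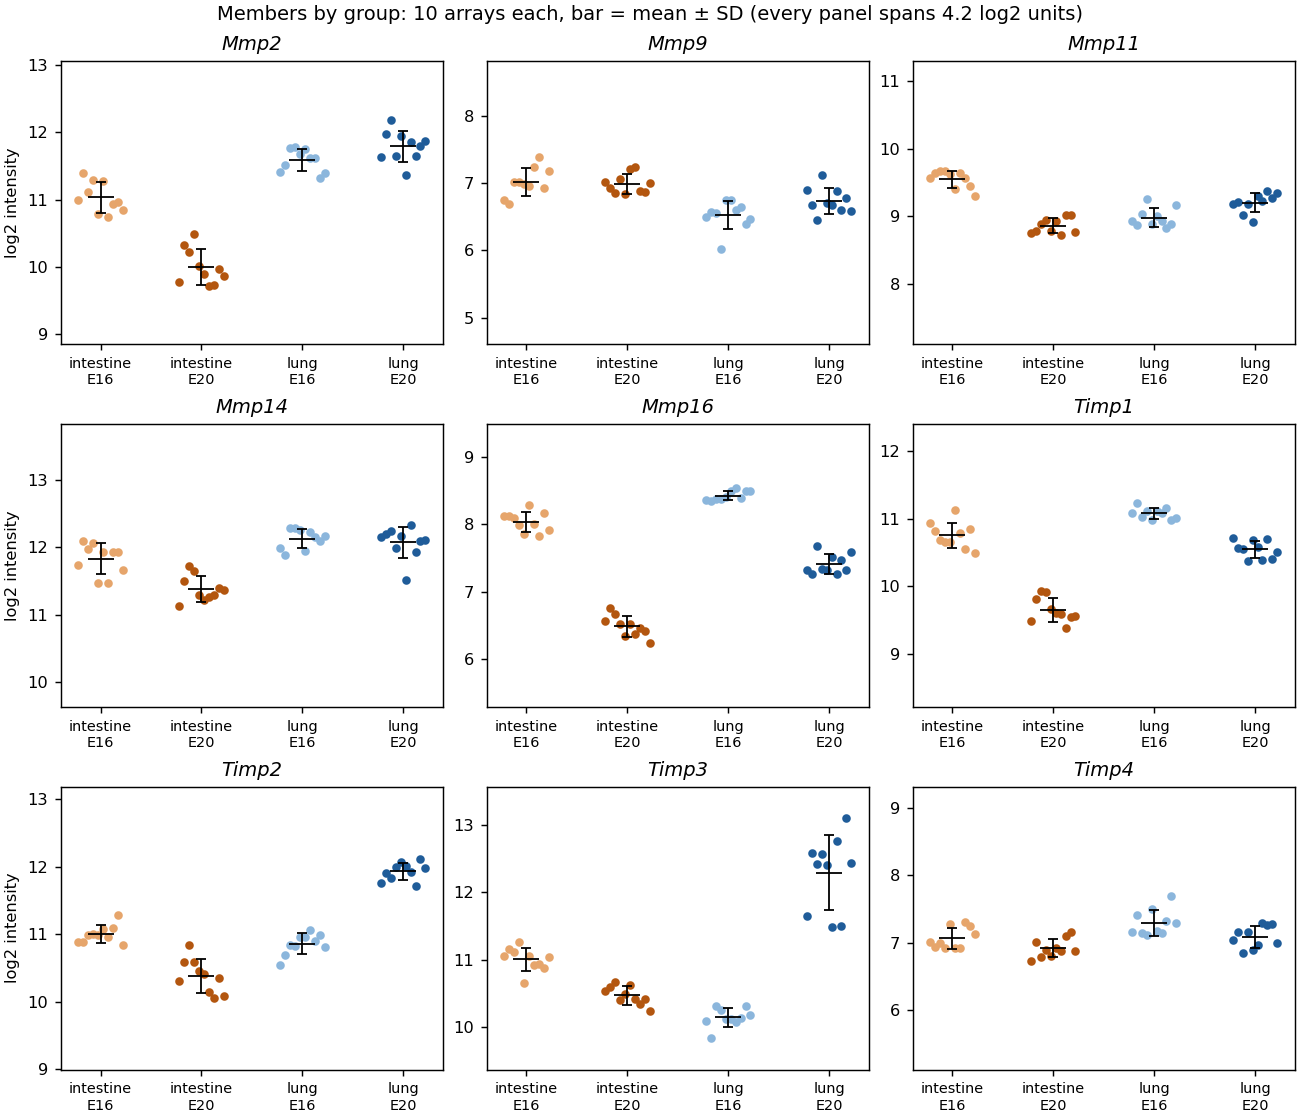
Log2 intensity of each of the 9 members on every array of the 4 groups, with the mean and SD of 10 arrays as a bar. Timp3 in lung moved from a range of 9.84 to 10.32 at E16 to one of 11.48 to 13.10 at E20, while Mmp9 and Timp4 stayed low, with overlapping arrays.

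The secreted gelatinase Mmp2 cuts denatured collagen and basement membrane collagen. In intestine its log2 intensity ran from 10.74 to 11.39 (median 10.98) at E16 and from 9.72 to 10.49 (median 9.94) at E20. In lung it ran from 11.33 to 11.78 (median 11.61) at E16 and from 11.37 to 12.19 (median 11.82) at E20. The intestinal arrays of the 2 ages did not overlap, and those of the lung did. Mmp2 fell in intestine from 11.03 ± 0.23 to 10.00 ± 0.27 (SD, n = 10 arrays each), a difference of -1.03 (SE 0.098, limma adjusted p = 1.83e-12). In lung the difference was 0.21 (95% interval 0.01 to 0.41, limma adjusted p = 0.058). The change differed between the organs by 1.24 (SE 0.14, limma adjusted p = 2.23e-10).

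The intestinal call for Mmp2 was narrow. It was lost when arrays were centred on their median (-0.98), when limma's treat tested for more than 2-fold (adjusted p = 1) and without intestine E16 replicate 2 (-0.990) or intestine E20 replicate 7 (-0.998) or 8 (-0.999). Its other probe set was dim, with group means of 7.16 to 7.62, and differed by -0.25 in intestine, so the mean of both sets gave -0.64. In lung this dimmer set differed by 0.39 (limma adjusted p = 2.5e-04), short of 2-fold. Its difference of the age changes was 0.64. For lung minus intestine at E16 the 2 probe sets of Mmp2 had opposite signs, 0.55 in the brighter and -0.46 in the dimmer.

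Mmp9, the other gelatinase, is known from leukocytes and from bone-resorbing cells. Its log2 intensity ran from 6.69 to 7.39 (median 7.0) in intestine at E16 and from 6.84 to 7.24 (median 6.96) at E20. In lung it ran from 6.03 to 6.75 (median 6.56) and from 6.45 to 7.12 (median 6.69). All 4 groups lay under the median of all values, and the arrays overlapped between all neighbouring groups. The age differences were -0.03 in intestine (95% interval -0.20 to 0.14, limma adjusted p = 0.801) and 0.21 in lung (0.04 to 0.38, adjusted p = 0.0266), far inside a 2-fold range. In these samples 3 neutrophil markers were measured, S100a8, S100a9 and Camp, and in lung all 3 rose, with a summed level of 8.39 to 9.38 at E16 and 11.67 to 12.67 at E20. In intestine that level was 8.67 to 10.11 and 8.94 to 10.52. The summed level of 7 myeloid markers ran from 11.41 to 11.71 in lung at E16 and from 12.45 to 12.75 at E20, and 3 of the 7 rose. In intestine it ran from 11.16 to 11.81 and from 12.19 to 12.47, and 4 of the 7 rose. Mmp9 was not called where these lists were higher, and their part in its values was not tested.

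Mmp11, stromelysin-3, is a stromal protease that is activated inside the cell by furin. It ran from 9.30 to 9.67 (median 9.59) in intestine at E16 and from 8.72 to 9.02 (median 8.83) at E20, with no overlap. In lung it ran from 8.82 to 9.25 (median 8.93) and from 8.92 to 9.38 (median 9.22), with overlap. The differences of -0.69 in intestine (SE 0.060, limma adjusted p = 1.38e-13) and 0.22 in lung (SE 0.060, adjusted p = 0.00111) did not reach 2-fold. Their difference of 0.91 (SE 0.085, adjusted p = 1.51e-12) did not reach it either. The order of the means was intestine E20, lung E16, lung E20 and intestine E16, and arrays of each neighbouring pair overlapped.

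The membrane-type protease Mmp14 cuts fibrillar collagen and activates Mmp2 at the cell surface. It was bright in all groups. In intestine it ran from 11.46 to 12.09 (median 11.93) at E16 and from 11.13 to 11.72 (median 11.33) at E20. In lung it ran from 11.88 to 12.29 (median 12.15) and from 11.51 to 12.33 (median 12.13). Arrays of all neighbouring groups overlapped. The age difference was -0.45 in intestine (SE 0.088, limma adjusted p = 2.09e-05) and -0.06 in lung (95% interval -0.23 to 0.12, adjusted p = 0.586). A second, dimmer probe set gave -0.15 in intestine and 0.41 in lung, so the sign in lung depended on the probe set. For lung minus intestine at E16 the brighter set gave 0.30 and the dimmer -0.47, and at E20 they gave 0.69 and 0.10.

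Mmp16, another membrane-type protease, fell in both organs. It ran from 7.82 to 8.29 (median 8.05) in intestine at E16 and from 6.25 to 6.76 (median 6.49) at E20. In lung it ran from 8.34 to 8.53 (median 8.40) and from 7.26 to 7.68 (median 7.33). No pair of groups that neighboured each other in level overlapped, in the order intestine E20, lung E20, intestine E16 and lung E16. The difference was -1.55 in intestine (SE 0.061, limma adjusted p = 6.57e-25) and -1.02 in lung (SE 0.061, adjusted p = 2.38e-18). The difference between the organs in this change, 0.54 (SE 0.086, adjusted p = 8.05e-07), did not reach 2-fold. Both E20 groups lay under the median of all values, so the size of the falls depends on the background. With 32 added to each intensity the lung difference was -0.90 and not called, and against a 2-fold change it was not called either (adjusted p = 1).

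Timp1 inhibits most secreted metalloproteinases, binds the proenzyme of Mmp9 and is a weak inhibitor of membrane-type enzymes. It ran from 10.50 to 11.13 (median 10.74) in intestine at E16 and from 9.39 to 9.93 (median 9.59) at E20. Lung arrays ran from 10.98 to 11.23 (median 11.09) and from 10.38 to 10.71 (median 10.56). Ages did not overlap in either organ. Timp1 fell in intestine by 1.11 on the log2 scale, a difference of -1.11 (SE 0.068, limma adjusted p = 3.06e-18). In lung the difference was -0.53 (SE 0.068, adjusted p = 5.30e-09), short of 2-fold, and against a 2-fold change the intestinal call was lost (treat adjusted p = 0.495).

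Timp2 is the partner of Mmp14 and Mmp2 described above. It ran from 10.84 to 11.29 (median 10.99) in intestine at E16 and from 10.06 to 10.84 (median 10.38) at E20. The lung values ran from 10.54 to 11.06 (median 10.87) and from 11.72 to 12.12 (median 11.95). The lung arrays at E20 lay above every array of the other 3 groups. Timp2 rose in lung from 10.86 ± 0.16 to 11.93 ± 0.13 (SD, n = 10 each), a difference of 1.07 (SE 0.077, limma adjusted p = 5.38e-16). In intestine the difference was -0.62 (SE 0.077, adjusted p = 2.00e-09), short of 2-fold. The changes differed by 1.69 (SE 0.11, adjusted p = 2.32e-17). The rise in lung was close to the fold limit: it was 0.99 with centred arrays, 0.93 in the mean of both its probe sets, and was not called when tested for more than 2-fold (adjusted p = 1).

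The second probe set of Timp2 gave smaller values that were not called. It differed between ages by 0.78 in lung and -0.06 in intestine, its difference of the age changes was 0.83, and lung minus intestine at E20 was 0.53, against 1.55 in the chosen set. With the mean of both sets these last 2 values were 1.26 and 1.04, and both were called.

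Timp3 is bound to the extracellular matrix and inhibits some relatives of the metalloproteinases, of the ADAM and ADAMTS families, as well. It changed most of the 9 genes in lung. It ran from 9.84 to 10.32 (median 10.14) in lung at E16 and from 11.48 to 13.10 (median 12.43) at E20, with no overlap. In intestine it ran from 10.66 to 11.27 (median 11.05) at E16 and from 10.23 to 10.67 (median 10.45) at E20. The rise in lung was 2.14 (4.42-fold, SE 0.13, limma adjusted p = 4.57e-18). In intestine the difference was -0.54 (SE 0.13, adjusted p = 3.86e-04), short of 2-fold, and the changes differed by 2.68 (SE 0.19, adjusted p = 2.99e-16). At E16 Timp3 was lower in lung than in intestine, by -0.86 (SE 0.13, adjusted p = 4.77e-07) and without overlap, which did not reach 2-fold, and at E20 it was higher in lung by 1.82 (SE 0.13, adjusted p = 5.49e-16).

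All 4 probe sets of Timp3 rose in lung, by 1.51, 2.30, 2.55 and 2.14 in a limma fit over all probe sets, and on each the lung arrays at E20 lay above those at E16. In intestine the same 4 sets differed by -0.32, 0.08, -0.52 and -0.54, so the sign there depended on the probe set. The level at E20 was not uniform. Lung E20 replicates 1, 6 and 8, the arrays that stood apart, had Timp3 at 11.65, 11.48 and 11.50, and the other 7 between 12.41 and 13.10. These 3 arrays were below the other 7 on all 4 probe sets. Among the 9 members, these 3 arrays were the 3 lowest for Timp3 and for no other. Their part in the spread was not tested. Without them, intestine E16 replicates 6, 8 and 9 and intestine E20 replicate 9, the rise was 2.46. Lung E16 replicate 9, which held the most cardiac transcripts, was kept in that fit. The summed level of 4 lung epithelial markers was 15.44 to 15.47 in lung E20 replicates 1, 6 and 8 and 15.59 to 15.77 in the other 7. The summed level of 5 endothelial markers was 13.23, 13.49 and 13.29 in these arrays, against 13.57 to 13.80 in the other 7, and that of 10 mesenchymal markers was 15.66, 15.59 and 15.56, against 15.58 to 15.88.

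**Figure D2:**
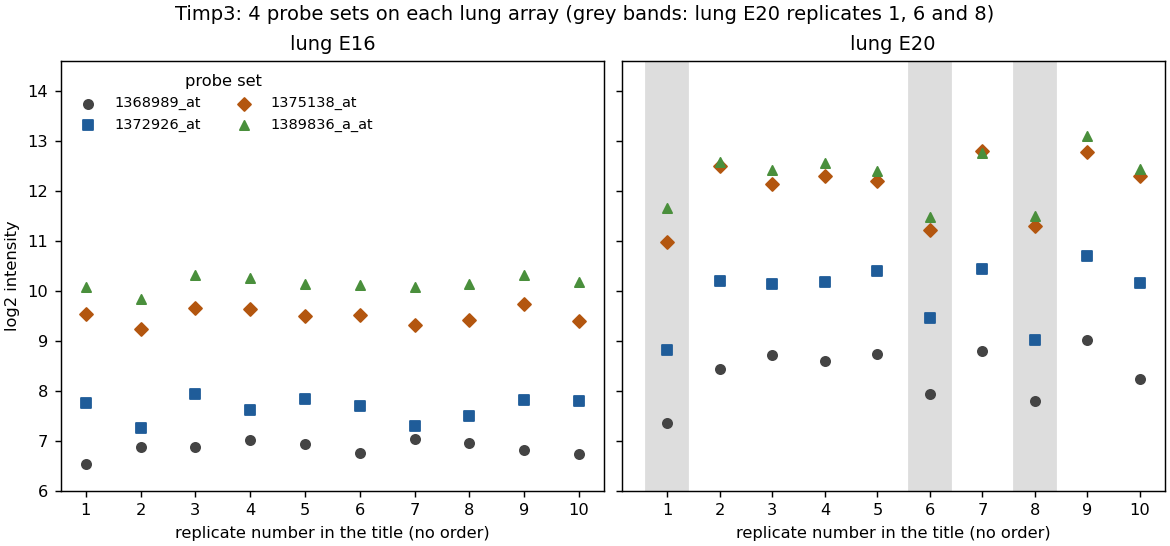
Log2 intensity of the 4 Timp3 probe sets on each lung array at E16 (left) and E20 (right), where the replicate number carries no order and grey bands mark lung E20 replicates 1, 6 and 8. On every probe set the E20 arrays lie above the E16 arrays, and the 3 banded arrays lie below the other 7.

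Timp4, known from heart and fat tissue, was dim throughout. It ran from 6.91 to 7.30 (median 6.998) in intestine at E16 and from 6.73 to 7.16 (median 6.88) at E20. Across lung arrays it ran from 7.11 to 7.69 (median 7.24) and from 6.85 to 7.29 (median 7.09). All neighbouring groups overlapped. The age differences were -0.15 in intestine (95% interval -0.30 to 0.00, limma adjusted p = 0.0686) and -0.21 in lung (-0.35 to -0.06, adjusted p = 0.0125), inside a 2-fold range.

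Between the organs no member reached 2-fold at E16, and 3 did at E20. At E16 no member was called in either direction by limma, where 2.13% of all genes were higher and 3.0% lower in lung. The absence of calls does not mean equal levels. Short of 2-fold, members differed in both directions, such as Timp3 (-0.86) and Mmp16 (0.39), each at a limma adjusted p under 0.05. All genes shifted by 0.15 between organs at E16 when arrays were centred, and the share of called genes that were higher in lung went from 41.5% to 52.9%, so small differences between organs depend on the scaling. At E20, 3 of 9 members were higher in lung and none lower, where 7.91% of all genes were higher and 8.21% lower. These were Timp3 (1.82), Mmp2 (1.79, SE 0.098, limma adjusted p = 5.05e-20) and Timp2 (1.55, SE 0.077, adjusted p = 1.82e-21). On the chosen probe sets none of them overlapped between organs. Mmp16 (0.92) and Timp1 (0.90) did not overlap either, and stood just short of 2-fold. On the other set of Mmp2 and of Timp2, and on the dimmest of Timp3, the organs overlapped. The share of all genes without overlap was not counted. The mean of both Mmp2 probe sets gave 0.98, which was not called, and the dimmer set alone gave 0.18 (limma adjusted p = 0.0721).

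The difference of the age changes, lung minus intestine, was called for Timp3, Timp2 and Mmp2, all higher in lung, where 9.13% of all genes were higher and 8.48% lower. It was 1.69 for Timp2 and 1.24 for Mmp2, and its median over the 9 members was 0.575, beside 0.032 over all genes. The 95% intervals of Mmp9 (-0.005 to 0.48) and Timp4 (-0.27 to 0.15) reached both signs. Centring shifted this contrast by -0.13 over all genes. For Mmp2 the call was lost with the mean of both probe sets (0.94) and against a 2-fold change (adjusted p = 0.362). A summed level of 10 mesenchymal markers, in which the brightest weigh most, was lower at E20 in intestine and higher in lung, with overlap. It ran from 15.33 to 15.81 in intestine at E16 and from 14.93 to 15.54 at E20. In lung it ran from 15.10 to 15.64 and from 15.56 to 15.88. Of these 10 genes 3 fell in intestine and 2 rose in lung, but others went against the sum, short of 2-fold. In intestine the means of Lum (11.85 to 12.44), Dcn (11.87 to 12.37) and Pdgfra (10.86 to 10.95) were higher at E20. In lung those of Pdgfra (11.20 to 10.61), Twist1 (5.43 to 4.86) and Pdgfrb (8.80 to 8.64) were lower. Epithelial markers rose in both organs (6 of 6 each). Their summed level in intestine ran from 12.14 to 12.80 at E16 and from 15.43 to 15.76 at E20, and in lung from 12.03 to 12.59 and from 14.05 to 14.44. The part of either list in the members' differences was not tested.

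**Figure D3:**
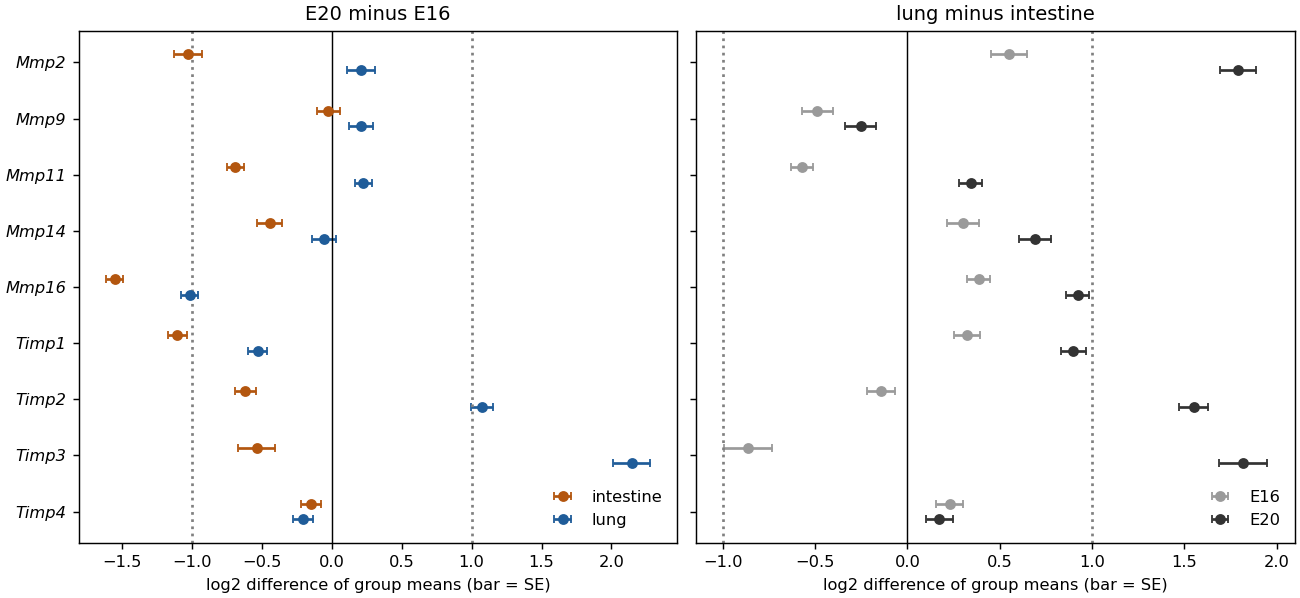
Log2 differences of the 9 members with their SE, between ages in each organ (left) and between organs at each age (right), with dotted lines at 2-fold. In the left panel Timp2 and Timp3 in lung lie at or beyond 1.07 and Mmp2, Mmp16 and Timp1 in intestine lie at or beyond -1.03, and in the right panel no member reaches 2-fold at E16.

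Proteases and inhibitors that bind each other were then compared within each array, as the log2 intensity of the protease minus that of the inhibitor. Probe sets differ in brightness, so its level has no meaning and its change between ages alone was read, with a two-sided permutation test of 100000 resamples and adjustment over 6 tests (smallest p possible 1e-05). In lung Mmp14 minus Timp2 ran from 0.99 to 1.47 (median 1.27) at E16 and from -0.50 to 0.41 (median 0.17) at E20, with no overlap. That was a change of -1.13 (adjusted permutation p = 4e-05), with all 10 arrays at E20 lower than any at E16. Its size depended on the probe sets: with the mean of each gene's sets it was -0.75 (adjusted permutation p = 4e-05), and the intestinal change below was 0.04 (adjusted permutation p = 0.513). In intestine the same difference ran from 0.48 to 1.201 and from 0.81 to 1.27, a change of 0.17 (adjusted permutation p = 0.073). Leaving out intestine E16 replicate 2 (0.22, adjusted permutation p = 0.0216) or 4 (0.20, 0.0447) brought it past the threshold.

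Mmp2 minus Timp2 went lower in both organs. Lung values ran from 0.33 to 0.96 (median 0.75) and from -0.64 to 0.36 (median -0.12), a change of -0.87 (adjusted permutation p = 6e-05). The lung groups overlapped slightly, at the lowest E16 and the highest E20 array. In intestine it ran from -0.33 to 0.50 (median 0.06) and from -0.61 to -0.10 (median -0.40), a change of -0.41 (adjusted permutation p = 5.4e-04). With the mean of each gene's probe sets the changes were smaller, -0.63 in lung and -0.30 in intestine (adjusted permutation p = 4e-05 and 7.2e-04). Relative to Timp2, both of its partners were thus lower at E20 in lung, and in intestine Mmp2 was, while the amounts in the 2 organs were not tested against each other. Mmp9 minus Timp1 changed by 1.08 in intestine and 0.74 in lung (adjusted permutation p = 4e-05 for both). Mmp9 was dim and did not change by the criteria used, so most of this difference lay in Timp1.

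**Figure D4:**
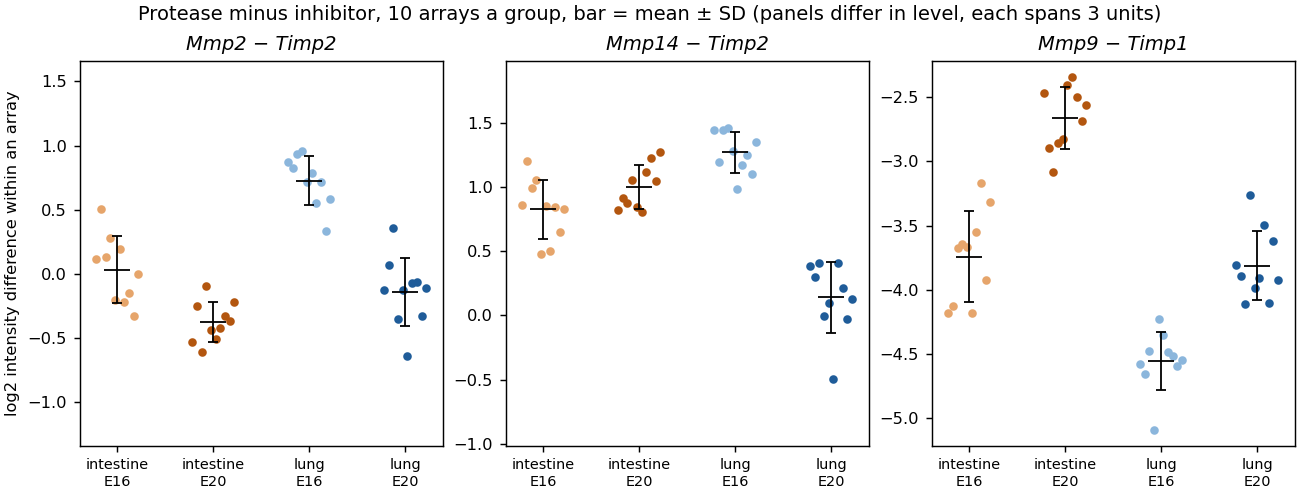
Protease minus inhibitor on each array, in log2 units, for 3 pairs and 4 groups of 10 arrays, with the mean and SD as a bar. Mmp14 minus Timp2 in lung lies between 0.99 and 1.47 at E16 and between -0.50 and 0.41 at E20, while its intestinal groups overlap.

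Other members of the pathway were taken from a list of 67 related genes, of which 57 were measured. In lung 12 of 57 rose and 1 fell, where 7.15% of all genes rose and 4.63% fell. In intestine 1 rose and 4 fell, where 8.79% of all genes rose and 6.26% fell, so the count that fell there was near the share over all genes. The median difference was 0.33 in lung and -0.12 in intestine, beside -0.01 and -0.09 over all genes. Of 12 other metalloproteinases 1 rose in each organ, a count near the share of all genes that rose (8.79% in intestine and 7.15% in lung). Mmp10, stromelysin-2, rose in intestine from a range of 4.36 to 6.14 (median 5.01) to one of 8.33 to 9.70 (median 9.29), without overlap. Its change of 4.17 (SE 0.16, limma adjusted p = 1.59e-25) was the largest of the list, and starts from a dim level. In lung Mmp10 stood at 4.03 to 5.06 and 4.11 to 4.62. Mmp15, another membrane-type enzyme, rose in lung from 8.76 to 9.41 (median 9.36) to 10.23 to 11.37 (median 11.18), a change of 1.75 (SE 0.12, limma adjusted p = 2.98e-16), and stood at -0.05 in intestine.

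Among activators and regulators 4 of 19 rose in lung, where 7.15% of all genes rose, and 2 fell in intestine, where 6.26% of all genes fell, which leaves the intestinal count near the share over all genes. The lung rises were Cd44, a hyaluronan receptor that can hold metalloproteinases at the cell surface (2.37, SE 0.073), Cav1 of caveolae (1.45), the plasminogen activator Plat (1.39) and Bsg, a membrane protein known to induce metalloproteinases (1.32). Plat went opposite ways in the 2 organs. It ran from 9.91 to 10.55 (median 10.10) in lung at E16 and from 11.04 to 11.78 (median 11.63) at E20, and from 11.17 to 11.80 (median 11.59) to 9.81 to 10.58 (median 10.04) in intestine. Its changes of 1.39 and -1.47 differed by 2.86 (SE 0.13, limma adjusted p = 7.93e-22). Reck, a membrane-anchored inhibitor of metalloproteinases, fell in intestine (-1.196, SE 0.084, limma adjusted p = 2.06e-16) and stood at 0.08 in lung.

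Among listed relatives of the ADAM and ADAMTS families, whether or not Timp3 inhibits each, 2 of 10 rose and 1 fell in lung. There 7.15% of all genes rose and 4.63% fell. In intestine 2 fell, where 6.26% of all genes fell. Counts of 1 or 2 in 10 are too few to read against these shares. Adamts1, which cuts proteoglycans, rose in lung (1.197, SE 0.095) and fell in intestine (-1.36, SE 0.095), with a difference of 2.56 (SE 0.13, limma adjusted p = 3.75e-20). Adamts5, a proteoglycan-cutting enzyme as well, fell in both (-1.38 in lung, -1.30 in intestine), and Adam15 rose in lung (1.19). Of 16 substrates 5 rose in lung, where 7.15% of all genes rose, and none fell, and none was called in intestine. Elastin, Eln, was the largest (2.74, SE 0.14), from 9.34 to 10.46 at E16 to 11.85 to 13.11 at E20. The basement membrane collagens Col4a5 (1.49), Col4a1 (1.37) and Col4a2 (1.34) and the laminin chain Lama5 (1.05) followed. Col4a5 stood at -0.68 and Lama5 at -0.98 in intestine, and both differed between organs in their change (2.16, SE 0.15, and 2.03, SE 0.15).

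**Figure D5:**
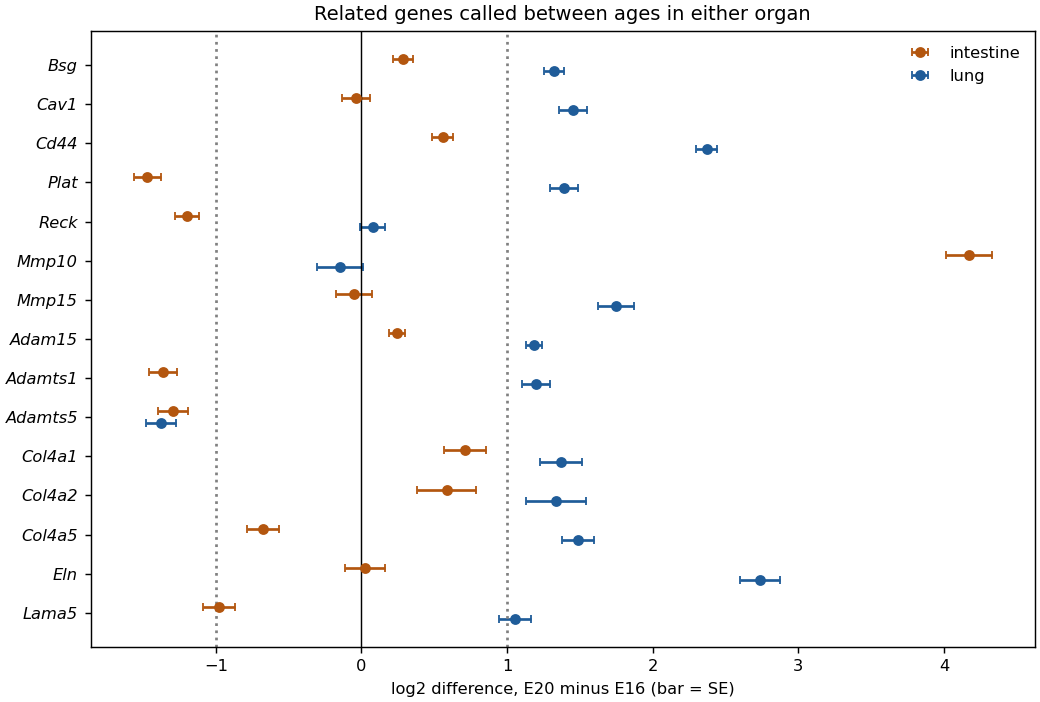
Log2 difference between E20 and E16, with SE, in intestine and lung for the 15 related genes called in at least 1 organ, with dotted lines at 2-fold. Plat and Adamts1 lie beyond 2-fold in opposite directions, Adamts5 lies below -1.2 in both organs, and Mmp10 stands at 4.17 in intestine alone.

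Between organs 6 of the 57 related genes were higher and 1 was lower in lung at E16, beside 2.13% higher and 3.0% lower among all genes. At E20, 17 were higher and 1 lower, where 7.91% of all genes were higher and 8.21% lower. The one that was lower at E16 was Plat (-1.41) and at E20 Mmp10 (-4.83). The largest at E16 were Adamts9 (1.40), Col4a1 (1.30), Pcsk5 (1.19), a proprotein convertase, the integrin chain Itgb3 (1.16) and Adamts5 (1.14). Each of these 5 calls was lost under an alternative: Adamts9, Pcsk5 and Adamts5 with the mean of a gene's probe sets, and Itgb3, Col4a1 and again Adamts5 when tested for more than 2-fold. The largest at E20 were Eln (3.47), Adamts1 (2.13), Col4a5 (2.05), Cav1 (2.05) and Serpine2 (2.02), an inhibitor of serine proteases.

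Genes with the most similar pattern were sought for the 5 members whose group means spanned at least 1 log2 unit, among 9772 genes brighter than the median of all values. Likeness was the root mean square difference of gene-centred log2 values over the 40 arrays, which share the same 4 groups, so it is a description. Closest to Mmp2 were P4ha1, a subunit of the enzyme that hydroxylates collagen prolines (0.14), the transcription factor Nr2f2 (0.17) and the matrix protein gene Egflam (0.18). Closest to Timp2 were Rcsd1 (0.17), the collagen-binding protein gene Sparc (0.17) and Itm2c (0.19). Closest to Timp3 were the ubiquitin ligase Nedd4l (0.28), the collagen chain Col6a3 (0.29) and the laminin chain Lamb2 (0.31), each less close than the neighbours of the other genes. For Mmp16 they were Apeg3 (0.17), Sncaip (0.19) and Rcbtb2 (0.19), and for Timp1 they were Psmc3ip (0.15), the transcription factor Sox4 (0.17) and Chsy1 (0.17), a chondroitin synthase.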

How the data were processed

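The authors deposited normalized summary intensities per probe set on a linear scale. The submitters' processing notes name RMA, without a version, and whether intestine and lung arrays went through it jointly is not stated there. Intensities ran from 6.65 to 39901. Here log2 was taken, the brightest probe set on average stood for each gene, and limma 3.58.1 in R 4.3.3 fitted 4 group means to 14217 genes on 40 arrays without covariates, with Benjamini-Hochberg adjustment over all genes. Of the probe sets, 20832 had 1 gene symbol, 436 several and 9831 none in the platform annotation, and 57 were controls; symbols were updated through a RefSeq table for GRCr8 (20758 identifiers found). Standard errors and 95% intervals come from this fit. In a test on simulated lung data over 14217 genes, 98 of 100 genes changed by 1.2 log2 units and 100 of 100 changed by 2 were recovered, with 0 false calls. Members, lists and tests were chosen with earlier results of these data known. Named were all 9 members, up to 5 called related genes in each direction of a comparison, and the 3 closest genes by likeness. Bsg, Adam15, Col4a2, Col1a2 and Fn1 fall outside that rule and were named after their values were seen, and the synapsins and Sftpc and Cdx2 were named for position and as markers. Lum, Dcn, Pdgfra, Pdgfrb and Twist1 were named since their means went against the summed mesenchymal level. Alternatives were another normalization, centring, averaged or fewer probe sets, a brightness filter, array weights, a test against a 2-fold change (limma's treat), an added pseudocount, fewer arrays or groups, blocks and single arrays left out. The number of arrays limits the precision, and no detection calls were used.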

Additional observations from a re-analysis of the deposited data

Results flagged for a closer look

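Of 48 groups of 10 arrays examined (9 members and 3 within-array differences in 4 groups), 5 held an array far from the others, where chance gives about 1 in 20 groups. Mmp9 stood at 6.03 in lung E16 replicate 4, against 6.39 in the next array, and Mmp9 minus Timp1 stood at -5.09 in the same array, against -4.66. Mmp14 stood at 11.51 in lung E20 replicate 6, against 11.93 in the next, and Mmp14 minus Timp2 at -0.50, against -0.03. This array held the most mesothelial transcripts, and its part in these values was not tested. Timp3 stood at 9.84 in lung E16 replicate 2, against 10.08 in the next.

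The age change differed between lung and intestine, by limma's test of the difference itself, for Timp3 (2.68), Timp2 (1.69) and Mmp2 (1.24) among the members. Among related genes the change was more positive in lung for Plat (2.86), Eln (2.71), Adamts1 (2.56), Col4a5 (2.16), Lama5 (2.03), Cd44 (1.81), Mmp15 (1.80) and Cav1 (1.49). It was also more positive for Serpine2 (1.30), Col1a2 (1.28), Reck (1.27), Fn1 (1.16) and Bsg (1.03), and more negative for Mmp10 (-4.32).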

How the results depend on the processing

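Under alternatives other than leaving out 1 array, 504 values of single members kept their side of the threshold. Another 12 called values lost the call, all given above beside Mmp2, Mmp16, Timp1 and Timp2. No called value reversed. The test against a 2-fold change left 1 member called in intestine (Mmp16) and 1 in lung (Timp3). It left 9 related genes for the difference of the age changes and 3 for lung minus intestine at E16. The share of all genes that it calls was not counted, so these counts have no background beside them. Averaged probe sets left 4 related genes for lung minus intestine at E16. The brightness filter removed Mmp16, Mmp9, Timp4 and Mmp10, which are dim on average. With each array left out in turn, 2 to 3 members were called in intestine, 3 in lung and 3 for the difference of the age changes, with 0 between organs at E16 and 3 at E20. In the same order of comparisons, 5 to 7, 13, 13 to 15, 7 and 17 to 19 related genes were called. The change of Mmp14 minus Timp2 in intestine lay between 0.14 and 0.22, and the other within-array differences kept their call. With the number in the title as a replicate block, random within each age (estimated correlation 0.11) or fixed, 3 members were called in intestine, 3 in lung and 3 at E20, and no call of a member changed. Each number occurs 1 time in every group. Such a block therefore leaves the differences as they were (Timp3 2.14 in lung) and can alter only their error and p-values. Deviations of same-numbered intestine and lung arrays from their group means correlated at -0.05 to 0.70 at E16 (median 0.27, 7 of 10 over 0.1) and 6 of 10 pairs matched best by their own number, a hint of pairing at E16 from the data. At E20 they correlated at -0.14 to 0.40 (median -0.09, 4 of 10 over 0.1) and 1 of 10 did, so the numbers were not taken as pairs, and no label says that they are. Values that were not called could change sign, and their direction was not part of the counts above. For instance, Mmp14 changed sign in lung with averaged probe sets (0.18) and without arrays holding other tissue (0.03). With single arrays left out, Mmp14 ran from -0.085 to 0.006 in lung and Mmp9 from -0.062 to 0.016 in intestine. The fold sizes of dim genes (Mmp9, Timp4, Mmp16 at E20 and Mmp10) depend on the background, and no detection calls were used.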
